A study of Mus musculus with 6 samples.

Results

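The BCL2 family decides whether a cell's mitochondria release the proteins that start apoptosis. The genes described here are 9 members chosen by symbol: Bcl2, Bcl2l1, Bcl2l2 and Mcl1, which protect cells, Bak1, which forms the pore, and Bcl2l11, Bad, Bid and Bmf, which trigger it. All 9 symbols were found among the 23235 genes of the deposited table, and 8 of them were among the 11532 genes tested. RNA came from LT-HSCs, long-term haematopoietic stem cells, which are scarce in marrow and can renew themselves and rebuild the blood. They were sorted from bone marrow of C57BL/6 mice aged 2 months. There were 3 wild-type (WT) libraries and 3 libraries from Hmces knockout mice, each made from 1500 cells with Smart-seq2. The design text of the series speaks of duplicates, whereas the labels and the table hold 3 libraries per genotype, and all 3 were used as separate samples. HMCES binds and protects abasic sites in single-stranded DNA. All library titles carry the tag 13bp, whose meaning is not stated. Nothing in the labels describes the knockout allele or says whether each library came from its own mouse, so the p-values below measure only the spread between these samples.

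Protective members hold the pore-forming effectors and the triggers in check by binding a short helix called BH3. BH3-only members carry little else in common: Bim (encoded by Bcl2l11) and cleaved Bid can act on the effectors directly, while Bad and Bmf mainly occupy protective proteins. Blood stem cells are known for a strong need for MCL-1, and BCL-XL (encoded by Bcl2l1) is best known for keeping platelets and late erythroid cells alive. Many members are also controlled after transcription, by turnover (MCL-1), cleavage (BID) or phosphorylation (BAD), so an RNA level is not a protein level.

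The feature shared by all 9 members is the BH3 core. It is shown here because protective members bind the BH3 helix of the effectors and triggers. For each member, 1 coding sequence from GENCODE M21 (mouse GRCm38) was translated, the longest whose open reading frame had the annotated coding length. It was searched for leucine or methionine, followed by any 2 residues, then alanine, isoleucine, methionine or valine, then glycine, alanine or serine, then aspartate. Each of these 9 coding sequences had 1 match, and other transcripts of the members are not described. The 27 bases around it are given 5′ to 3′, with the codons of the small residue and the aspartate in capitals.
Mcl1: gagaccctgcggcgcgtgGGCGACggc
Bcl2l1: caagcgctgagagaggcaGGCGATgag
Bcl2: ctgaccctccgccgggctGGGGATgac
Bcl2l2: caagccatgcgggctgctGGAGACgag
Bak1: cggcagcttgctctcatcGGAGATgat
Bcl2l11: caggagctgcggcggatcGGAGACgag
Bid: agacatctcgcccaaataGGCGATgag
Bad: cgtgagctccgaaggatgAGCGATgag
Bmf: agaaagcttcagtgtattGCAGACcag
The small residue was glycine in 7 members, serine in Bad and alanine in Bmf, and the first residue was methionine in Bcl2l2 and leucine in the others. The match began at codon 194 of 331 in Mcl1 and at codon 94 of 236 in Bcl2. It began at codon 46 of 193 in Bcl2l2 and at codon 224 of 271 in Bmf.

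Hmces, listed under its older symbol 8430410A17Rik, stood at 39.5, 45.4 and 41.0 FPKM (fragments scaled to transcript length and to mapped fragments) in WT, against 8.95, 0.222 and 6.95 FPKM in the knockout. Estimated depth was 9300000 to 14100000 fragments per library. Of 12 LT-HSC markers, 11 reached 1 FPKM in every library, the exception being Fgd5, and their summed level was 640 to 720 FPKM in WT and 783 to 799 FPKM in knockout libraries. The summed level of 10 granulocyte and monocyte genes was 6528 to 10300 FPKM in WT and 18492 to 24856 FPKM in knockout libraries, and all 10 had the higher mean in the knockout. The part of these other transcripts in the values below was not tested. Knockout replicate 2 scored 67.0 on the first principal component, against -33.6 to 10.1 for the other libraries.

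None of the tested members passed the test between genotypes, and for every member the WT and knockout values overlapped. Hmces itself did not pass this test either (limma adjusted p = 0.289), although each of its knockout values lay below every WT value. With 3 libraries per genotype, the lack of a call therefore does not show that a member was unchanged. Of the 8 members tested, 0 were called by limma at an adjusted p under 0.05, where 0.113% of all genes were called, and 0 had an unadjusted p under 0.05, where 9.16% of all genes did. Groups that did not overlap were found for 0 of 8 members and for 15.8% of all genes. The median log2 fold change (knockout minus WT, of log2(FPKM + 1) values) was 0.00 over these 8 members and -0.01 over all genes tested, with 4 members above 0 and 4 below. RNA from a pool of cells cannot tell fewer expressing cells from less RNA per cell.

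Among the protective genes, Mcl1, whose short-lived protein holds BAK and Bim, was among the most abundant members and the most variable of the abundant ones. It was read at 33.1, 37.0 and 21.7 FPKM in WT replicates 1 to 3 and at 45.2, 25.6 and 24.4 FPKM in knockout replicates 1 to 3. The highest and the lowest of the 6 values thus came from knockout replicate 1 and WT replicate 3, and the group means were close, at 30.6 ± 7.95 and 31.7 ± 11.7 FPKM (SD, n = 3 per genotype). Its log2 fold change was 0.03 (SE 0.29, 95% interval -0.64 to 0.70, limma adjusted p = 0.988), an interval from 0.642-fold to 1.62-fold. Its sign rested on single libraries: it was -0.25 without knockout replicate 1 and -0.19 without WT replicate 3, and 0.10 to 0.19 without any other library.

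Bcl2l1 encodes BCL-XL, and a shorter splice form with the opposite effect that a gene-level value cannot separate. It measured 26.1, 25.5 and 42.2 FPKM in the WT libraries against 32.5, 39.4 and 32.2 FPKM in the knockout ones. WT replicate 3 was the highest of all 6, the reverse of its place for Mcl1, and the other WT values lay below every knockout value. The means were 31.3 ± 9.45 FPKM in the WT and 34.7 ± 4.04 FPKM in the knockout (SD, n = 3 per genotype), a log2 fold change of 0.18 (SE 0.22, 95% interval -0.33 to 0.69, limma adjusted p = 0.827). Leaving out 1 library moved it in both directions without a call. It was 0.41 without WT replicate 3 (limma adjusted p = 0.676), and 0.071, 0.056 and 0.086 without WT replicate 1, WT replicate 2 or knockout replicate 2.

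Bcl2, the founding member of the family, had the smallest residual SD of the protective genes. It stood at 16.7, 21.1 and 17.8 FPKM in the WT libraries against 14.8, 20.02 and 14.6 FPKM in the knockout ones. Replicate 2 was the highest library in both genotypes, and the ranges overlapped. The log2 fold change was -0.17 (SE 0.20, 95% interval -0.64 to 0.30, limma adjusted p = 0.824), with a residual SD of 0.21 on the log2(FPKM + 1) scale where genes within 2-fold of its mean level had a median of 0.30. Leaving out 1 library still moved the log2 fold change, to -0.074 without WT replicate 2. Dropping knockout replicate 1, 2 or 3 gave -0.10, -0.30 and -0.092.

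Bcl2l2, which encodes BCL-W, was low and uneven. It was listed at 0.631, 2.17 and 0 FPKM in the WT libraries against 2.89, 1.91 and 0 FPKM in the knockout ones, so 1 library of each genotype was at 0. The others reached up to an estimated 103 fragments. That estimate takes the longest coding transcript, of 3813 nt, and the shortest, of 498 nt, would give fewer. In the GENCODE annotation it overlaps the readthrough gene Gm20521 on the same strand, which was not in the table. Whether this overlap bears on the listed 0 values was not tested. The log2 fold change of 0.38 (SE 0.64, 95% interval -1.10 to 1.85, limma adjusted p = 0.880) had an interval from 0.468-fold to 3.61-fold. These are folds of FPKM + 1, which at such low levels depend on the added 1. With a pseudocount of 0.1 in place of 1 the log2 fold change was 0.62, with a wider SE of 1.71. With the pseudocount of 1 it was -0.018 without knockout replicate 1 and -0.017 without WT replicate 3, and 0.19 to 0.96 without any other library.

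Bak1 encodes BAK, an effector that sits in the outer mitochondrial membrane and forms the pore with others of its kind. Its level was low in both genotypes, at 2.23, 1.77 and 2.77 FPKM in the WT libraries against 3.55, 1.78 and 1.55 FPKM in the knockout ones. Knockout replicate 1 was the highest library and knockout replicate 3 the lowest, so the knockout range enclosed the WT range. The log2 fold change was -0.02 (SE 0.36, 95% interval -0.84 to 0.80, limma adjusted p = 0.993), and leaving out 1 library turned it to 0.075 (knockout replicate 2), 0.14 (knockout replicate 3) or 0.089 (WT replicate 3). Leaving out any other library gave -0.28 to -0.022.

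**Figure D1:**
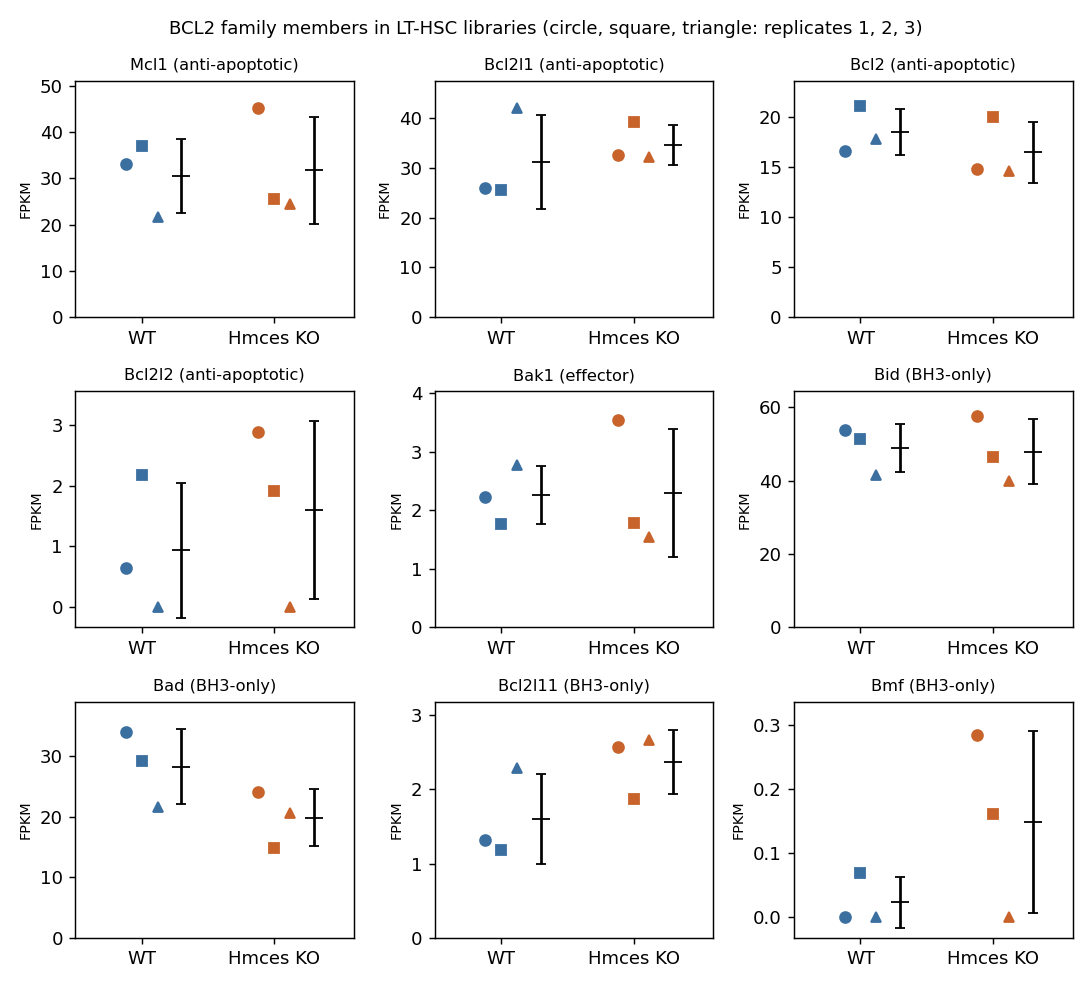
FPKM of each of the 9 members (y axis, linear, 1 scale per panel) in WT (blue) and Hmces knockout (orange) libraries; circles, squares and triangles are replicates 1, 2 and 3, and black marks are the mean ± SD (n = 3). In every panel the values of both genotypes overlap; Bad has the lowest of its 6 values in knockout replicate 2, at 14.8 FPKM.

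Of the BH3-only genes, Bid had the highest mean of all 9 members in both genotypes. Its protein is inactive until a caspase cuts it, which links death receptors to mitochondria. It measured 53.8, 51.3 and 41.4 FPKM in the WT libraries against 57.5, 46.3 and 39.8 FPKM in the knockout ones, and in both genotypes replicate 1 was the highest and replicate 3 the lowest. The means were 48.9 ± 6.55 and 47.9 ± 8.96 FPKM (SD, n = 3 per genotype). The log2 fold change of -0.04 (SE 0.18, limma adjusted p = 0.973) had the narrowest interval of the 8 members, -0.45 to 0.38, or 0.730-fold to 1.30-fold. The sign turned, to 0.087, 0.038 and 0.0034, when knockout replicate 3, WT replicate 1 or WT replicate 2 was left out, and it was -0.17 to -0.020 without any other library.

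Bad, which encodes a trigger kept inactive by survival kinases, had the smallest p of the members, without passing the test. It stood at 33.9, 29.3 and 21.6 FPKM in the WT libraries against 24.0, 14.8 and 20.6 FPKM in the knockout ones. The 2 highest values were WT and the 2 lowest were knockout, but knockout replicate 1 lay above WT replicate 3. The means were 28.3 ± 6.20 and 19.8 ± 4.66 FPKM (SD, n = 3 per genotype), a ratio of 0.701. For Bad the log2 fold change was -0.49 (SE 0.24, 95% interval -1.05 to 0.07, unadjusted p = 0.0763, limma adjusted p = 0.588), and it lay between -0.67 and -0.31 over the 15 alternative fits, with the value nearest 0 obtained without knockout replicate 2. In the annotation Bad overlaps Gpr137 on the opposite strand, as Bak1 overlaps Ggnbp1 and Bid overlaps Bcl2l13. Whether counting used strand is not given, and the part of these overlaps in the listed values was not tested.

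Bcl2l11, which encodes the strong trigger Bim, was low, with a higher mean in the knockout that did not pass the test. It measured 1.32, 1.18 and 2.29 FPKM in the WT libraries against 2.58, 1.87 and 2.66 FPKM in the knockout ones. WT replicate 3 lay among the knockout values, and the other WT libraries lay below them. For Bcl2l11 the log2 fold change was 0.39 (SE 0.33, 95% interval -0.38 to 1.17, limma adjusted p = 0.741), and with a pseudocount of 0.1 in place of 1 it was 0.58. Bmf, a trigger tied to the cytoskeleton, was at the edge of detection and below the level at which genes were tested. It was listed at 0, 0.0686 and 0 FPKM in the WT libraries against 0.283, 0.161 and 0 FPKM in the knockout ones, where 3 fragments of its longest coding transcript correspond to 0.0479 to 0.0726 FPKM. The nonzero values rest on an estimated 4 fragments in WT replicate 2, and 12 and 8 in knockout replicates 1 and 2, so no fold change is given.

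**Figure D2:**
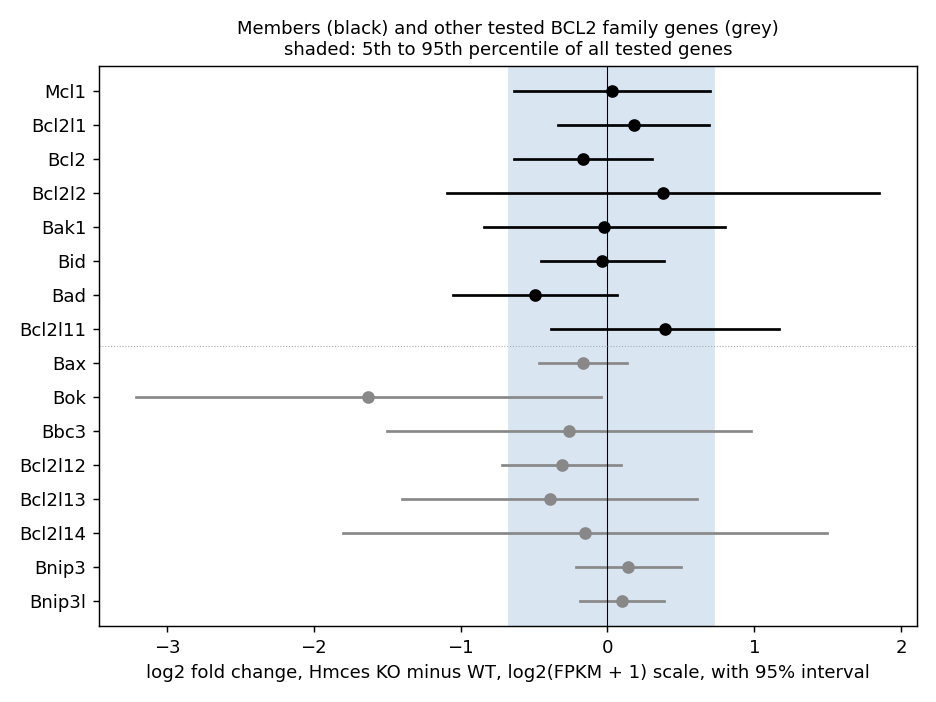
Log2 fold change (x axis, knockout minus WT, of log2(FPKM + 1) values) with its 95% interval for the 8 tested members (black) and the 8 other tested BCL2 family genes (grey). The shaded band, -0.67 to 0.73, holds the 5th to 95th percentile of all tested genes; every member's point lies inside it, every member's interval includes 0, and Bok lies outside the band at -1.63.

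Across members the levels formed an upper and a lower tier in both genotypes. Bid, Bcl2l1, Mcl1, Bad and Bcl2 had means of 16.5 to 48.9 FPKM, whereas Bak1, Bcl2l11, Bcl2l2 and Bmf had means of 2.37 FPKM or below. FPKM is scaled to transcript length, so these levels can be set side by side, but only roughly. The annotation behind the lengths is not given. In WT, Bid lay above 78.6% of the genes tested, Bcl2l1 above 69.6%, Mcl1 above 69.0%, Bad above 67.2% and Bcl2 above 57.6%, while Bak1 lay above 13.3% and Bcl2l11 above 8.2%. The tiers did not overlap in any library. Within the WT upper tier the ranges of neighbours overlapped for Bid and Bcl2l1, for Bcl2l1 and Mcl1, and for Mcl1 and Bad. Bad lay above Bcl2 in 3 of 3 WT libraries without overlap, by a narrow gap (lowest Bad 21.6 FPKM, highest Bcl2 21.1 FPKM). In knockout cells the gaps were also narrow between Bid and Bcl2l1 (lowest Bid 39.8 FPKM, highest Bcl2l1 39.4 FPKM). The same held for Mcl1 and Bad (lowest Mcl1 24.4 FPKM, highest Bad 24.0 FPKM). The knockout ranges of Bcl2l1 and Mcl1, and of Bad and Bcl2, overlapped. Within the lower tier the ranges of neighbours overlapped in both genotypes.

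The balance of survival genes was taken in each library as the summed FPKM of the 4 protective members over that of the 5 death-promoting members. It was near parity in both genotypes: 0.838, 1.03 and 1.20 in WT replicates 1 to 3 and 1.08, 1.34 and 1.102 in knockout replicates 1 to 3. The lowest library was WT and the highest was knockout, but WT replicate 3 lay above 2 of the 3 knockout libraries. As a description, the mean log2 ratio was 0.01 ± 0.26 in WT and 0.23 ± 0.17 in knockout cells (SD, n = 3 per genotype), a difference of 0.212 against an SD between replicates of 0.22. The protective sum was 81.3 ± 4.65 FPKM in the WT and 84.5 ± 12.3 FPKM in the knockout, and the death-promoting sum was 81.0 ± 11.8 and 72.5 ± 13.4 FPKM (SD, n = 3 per genotype).

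The size of this difference depended on Bad and on single libraries. Without Bad it was 0.06, with 0.63 ± 0.20 in WT and 0.69 ± 0.11 in knockout cells on the log2 scale (SD, n = 3 per genotype). Leaving out WT replicate 1 gave 0.0765, leaving out knockout replicate 2 gave 0.115 and leaving out WT replicate 3 gave 0.335. With each gene given equal weight, as the mean of log2(FPKM + 1) on each side, it was 0.105. Granulocyte genes, at 18492 to 24856 FPKM in knockout against 6528 to 10300 FPKM in WT libraries, differed alongside, and their part in the balance was not tested.

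Each side was made up of few genes. Bid supplied 59.0% to 61.4% of the death-promoting sum in WT and 61.6% to 71.3% in knockout libraries, and Bad supplied 31.7% to 37.1% and 22.8% to 31.9%. Bak1, Bcl2l11 and Bmf supplied the small remainder. On the protective side the leading gene varied from library to library, and each of 2 genes led in libraries of both genotypes. Mcl1 led in WT replicates 1 and 2 and knockout replicate 1, at 43.1% to 47.3% of the sum, and Bcl2l1 led in WT replicate 3 and knockout replicates 2 and 3, at 45.2% to 51.6%. The ratio of Bcl2l1 to Mcl1 was 0.788, 0.691 and 1.95 in WT and 0.720, 1.54 and 1.32 in knockout libraries. Bcl2 supplied 15.5% to 24.6% throughout.

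**Figure D3:**
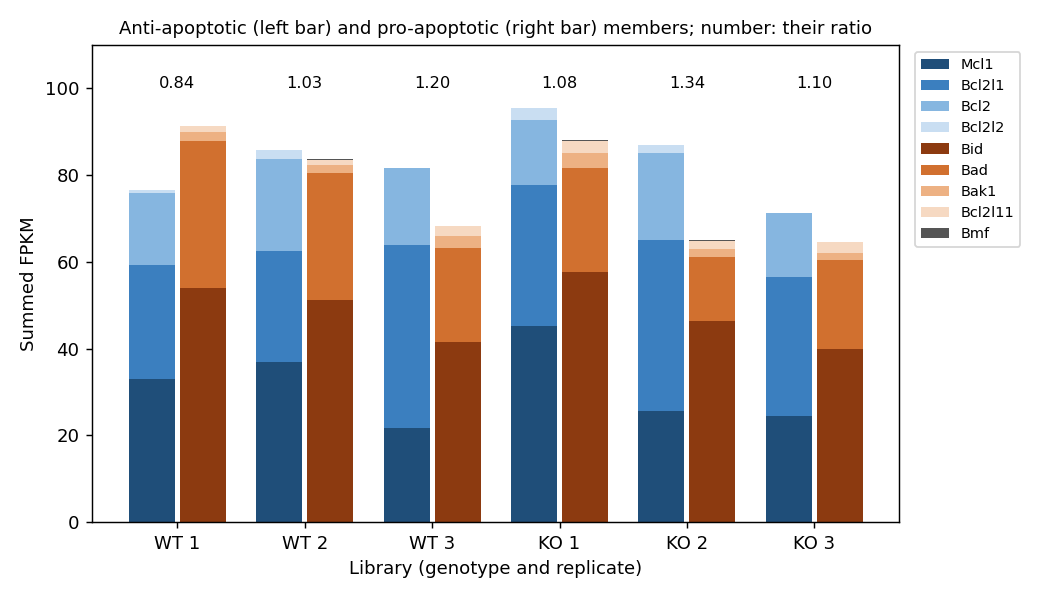
Summed FPKM (y axis, from 0) of the 4 protective members (left bar, blues) and the 5 death-promoting members (right bar, browns) in each library, with the ratio of the sums above. The ratio runs from 0.84 in WT replicate 1 to 1.34 in knockout replicate 2, and the tallest blue segment is Mcl1 in WT 1, WT 2 and KO 1 and Bcl2l1 in WT 3, KO 2 and KO 3.

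Another 17 BCL2 family genes were in the table. Bax, the effector that moves from the cytosol to mitochondria, was the most abundant of the family genes assigned here to the death-promoting side. It was at 91.6, 94.5 and 76.9 FPKM in the WT libraries against 82.9, 73.9 and 76.5 FPKM in the knockout ones (log2 fold change -0.17, SE 0.13, limma adjusted p = 0.718). Its level was 27.8 to 53.3 times that of Bak1 in WT and 23.4 to 49.4 times in knockout libraries. With Bax alone added to the death-promoting side, the ratio of sums was 0.418 to 0.563 in WT and 0.505 to 0.626 in knockout libraries. The log2 difference between genotypes was then 0.213, next to 0.212 without it. With the other protective and death-promoting family genes added to their sides, the ratio was 0.383 to 0.538 in WT libraries. It was then 0.480 to 0.594 in knockout libraries, with a log2 difference of 0.238. Without Mcl1 among the members, the ratio was 0.475 to 0.881 in WT and 0.571 to 0.943 in knockout libraries. The level of the ratio thus depended on which genes were counted.

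Of these 17 genes 8 were tested, and none was called by limma, 0 with higher and 0 with lower levels, where 0.113% of all genes were called. An unadjusted p under 0.05 was found for 1 of the 8, next to 9.16% of all genes. That gene was Bok, a less studied relative of the effectors, at 11.5, 7.29 and 6.57 FPKM in the WT libraries against 2.38, 6.89 and 0 FPKM in the knockout ones. Knockout replicate 2 lay among the WT values and the other knockout libraries lay below them (log2 fold change -1.63, SE 0.68, limma adjusted p = 0.536). Bbc3, the p53 target that encodes PUMA, was at 4.87, 4.33 and 2.14 FPKM in the WT libraries against 4.37, 0.703 and 5.20 FPKM in the knockout ones (limma adjusted p = 0.907). Pmaip1, which encodes the MCL-1 antagonist NOXA, was at 0, 0.991 and 0 FPKM in the WT libraries against 1.37, 1.02 and 0.0437 FPKM in the knockout ones, below the level tested.

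Bcl2a1a, Bcl2a1b, Bcl2a1c and Bcl2a1d, near-identical copies of a protective gene known from activated myeloid cells and neutrophils, stayed at or below 1.12 FPKM in every library. Their counts are uncertain because reads can be shared among the copies. The copies did not share a direction, and all were below the level tested. Bcl2a1b was at 0, 0.407 and 0 FPKM in the WT libraries against 1.12, 0.477 and 0.574 FPKM in the knockout ones, without overlap. In WT, Bcl2a1d was at 0, 0.128 and 1.07 FPKM and Bcl2a1c at 0.292 FPKM in WT replicate 3 alone, and both were listed at 0 in every knockout library. Bcl2a1a was listed above 0 only in replicate 2 of each genotype, at 0.385 FPKM in WT and 0.301 FPKM in the knockout. Bcl2l10 was listed at 0 in all 6 libraries. Bik and Hrk were at or below 0.570 FPKM apart from 3.19 FPKM of Bik in knockout replicate 3, and Bcl2l15 was at or below 0.590 FPKM.

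Among relatives not assigned to either side, Bcl2l12 had 42.8 ± 3.45 FPKM in the WT and 34.6 ± 6.16 FPKM in the knockout, and the mitophagy receptor genes Bnip3 and Bnip3l had 41.4 ± 2.15 and 46.1 ± 6.999 FPKM, and 77.9 ± 7.06 and 83.3 ± 4.15 FPKM (SD, n = 3 per genotype). Bcl2l13, which overlaps Bid on the opposite strand in the annotation, had 9.44 ± 2.69 and 7.68 ± 4.66 FPKM. Bcl2l14 had 2.30 ± 1.77 and 2.0997 ± 1.82 FPKM (SD, n = 3 per genotype). Limma adjusted p-values of these 5 genes were between 0.632 and 0.968.

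Genes that act before and after the BCL2 family also gave no call. They were given in 3 lists with 44 genes, all tested, of which limma called 0 higher and 0 lower, where 0.113% of all genes were called. An unadjusted p under 0.05 was found for 1 of the 44, next to 9.16% of all genes. Groups did not overlap for 7 of the 44, or 15.9%, next to 15.8% of all genes. Of 19 genes of the mitochondrial route after the BCL2 family, 10 had a log2 fold change above 0 and the median was 0.02. The ubiquitin ligase genes Birc6 and Birc3, which restrain caspases or cell death signalling, had the smallest p-values. Birc6 was at 7.48, 8.92 and 8.41 FPKM in the WT libraries against 10.3, 15.8 and 10.2 FPKM in the knockout ones, without overlap (limma adjusted p = 0.596). Birc3 was at 14.7, 13.2 and 6.11 FPKM in the WT libraries against 19.6, 22.5 and 12.7 FPKM in the knockout ones, with overlap (limma adjusted p = 0.597). Cycs, the cytochrome c gene, and Casp9, the caspase it activates, were the others without overlap, at 99.7 ± 7.69 and 85.2 ± 3.41 FPKM and at 8.70 ± 0.388 and 6.66 ± 0.769 FPKM in WT and knockout cells (SD, n = 3 per genotype).

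Of 9 death receptor genes, 4 had a log2 fold change above 0 and the median was -0.00. Tnfrsf10b, the mouse TRAIL receptor gene and a p53 target, was at 5.49, 7.17 and 8.79 FPKM in the WT libraries against 9.28, 11.8 and 11.2 FPKM in the knockout ones, without overlap (limma adjusted p = 0.563). Fas, which encodes another death receptor, was at 2.34, 1.12 and 5.47 FPKM in the WT libraries against 3.94, 4.71 and 4.596 FPKM in the knockout ones, where WT replicate 3 was the highest of all (limma adjusted p = 0.703). Casp8, which cuts BID, was tested in the same list and had a log2 fold change of 0.13 (SE 0.14, limma adjusted p = 0.800).

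Of 16 regulators of BCL2 family proteins or genes, 5 had a log2 fold change above 0 and the median was -0.11. Pim3, a survival kinase gene whose product can phosphorylate BAD, was at 29.8, 34.9 and 38.5 FPKM in the WT libraries against 20.5, 26.8 and 22.4 FPKM in the knockout ones. The highest knockout value was lower than the lowest WT value (log2 fold change -0.55, SE 0.18, 95% interval -0.95 to -0.14, unadjusted p = 0.0153), but the gene was not called (limma adjusted p = 0.482). Its relative Pim2 was at 45.2 ± 1.62 and 41.9 ± 1.17 FPKM (SD, n = 3 per genotype), also without overlap (limma adjusted p = 0.817). Fbxw7, which encodes a ubiquitin ligase subunit that targets MCL-1, was at 1.29, 1.23 and 1.78 FPKM in the WT libraries against 2.30, 4.41 and 2.05 FPKM in the knockout ones, without overlap (limma adjusted p = 0.626). Trp53 had 237 ± 43.8 FPKM in the WT and 238 ± 17.2 FPKM in the knockout, and Foxo3, which can activate Bcl2l11, had 21.3 ± 2.16 and 17.9 ± 3.004 FPKM (SD, n = 3 per genotype; limma adjusted p = 0.980 and 0.718).

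**Figure D4:**
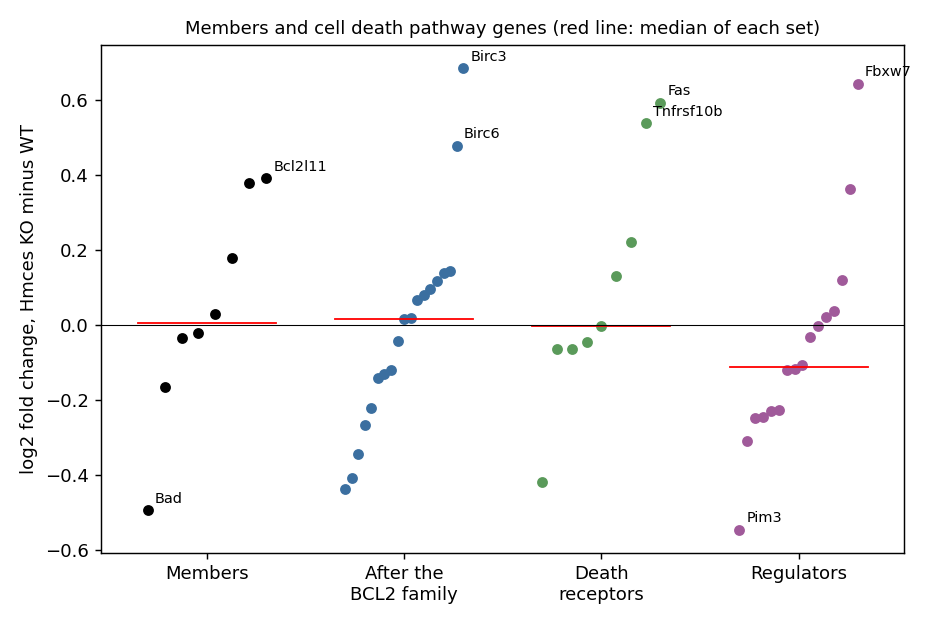
Log2 fold change (y axis, knockout minus WT, of log2(FPKM + 1) values) of the 8 tested members and of the 3 lists of cell death genes, each point a gene, sorted within its list; the red line is the list's median. The medians lie between -0.11 and 0.02, and the named genes are those with the smallest p of each pathway list, with Bad and Bcl2l11 among the members.

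For Bcl2 and Mcl1, the genes with the most similar profile over the 6 libraries were sought by the root mean square difference of log2(FPKM + 1) values centred on each gene's mean. Those nearest to Bcl2 were Rrp36 (difference 0.0385), Traf7 (0.0458) and Psip1 (0.0554). Those nearest to Mcl1 were March5 (0.109), Cited2 (0.110) and Phkg1 (0.114). March5 measured 25.7, 31.2 and 19.0 FPKM in the WT libraries against 31.8, 18.5 and 19.5 FPKM in the knockout ones. With 11532 genes compared over 6 libraries, close profiles are easily found, and the likeness is given as a description.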

How the data were processed

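Gene expression was deposited by the authors as FPKM values, 1 column per library, with TopHat2 2.1.1, Cufflinks 2.2.1 and build mm9 named per the submitters' processing notes; the sources used here do not give the annotation or the strand setting. FPKM values are relative to the other transcripts of a library. Sequencing depth was inferred from the spacing of low values, with an assumed fragment length of 200 nt, and floors cover counting error only. Genes averaging 1 FPKM or more over the 6 libraries were tested on log2(FPKM + 1) with limma 3.58.1 in R 4.3.3 (variance trend, genotype as the only term), two-sided, with Benjamini-Hochberg adjustment over all genes and 95% intervals unadjusted. The script was tested on simulated data. Sums, ratios and the survival balance carry no test. Members and gene lists were chosen with earlier results of these data known. All 9 members and all other BCL2 family genes were named, and in the other lists the 2 genes with the smallest p; Cycs, Casp9, Pim2, Casp8, Trp53 and Foxo3 were chosen after their values were seen. Alternatives changed the pseudocount, filter, scaling, variance model, block, libraries and the genes in the balance. BH3 cores came from 1 GENCODE M21 transcript per member, matched by symbol; no coordinates are given because the builds differ.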

Additional observations from a re-analysis of the deposited data

How the results depend on the processing

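No member was called under any alternative that could be fitted for it (117 fits over 8 members, lowest adjusted p = 0.419, for Bad without knockout replicate 1), and 107 of these fits kept the sign. Signs turned only when a library was left out: ranges over the 6 such fits were -0.018 to 0.96 for Bcl2l2, -0.25 to 0.19 for Mcl1, -0.28 to 0.14 for Bak1 and -0.17 to 0.087 for Bid. The count of called genes, 13 in the main fit, was 3 when low genes were kept and 32 without small RNA genes. It was 6 when the variance trend was dropped and 20 with robust estimation, both with the same 11532 genes tested. A filter at a mean of 5 FPKM left 8470 genes tested and again 13 called. With 1 library left out the count ranged from 2 to 19. Dropping WT replicate 2 gave 7, and dropping knockout replicate 2 or 3 gave 5 or 2. With the replicate number as a block (replicate block) the count was 2. What moved the count was not tested. Deviations of same-numbered libraries correlated at 0.08, 0.011 and 0.035. Those of other-numbered libraries correlated at -0.083 to 0.048, the highest being WT replicate 3 with knockout replicate 2. All were weak and do not settle whether the numbers are pairs, and the main fit did not take them as pairs. The balance difference stayed between 0.0601 and 0.335 over 13 alternatives, of which adding Bax alone was chosen after seeing the data.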
